A study of Danio rerio with 8 samples.

Results

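The genes described here are 10 genes of the zebrafish epicardium, of fibroblasts and of the provisional matrix that forms in a wound: aldh1a2, tcf21, tbx18, wt1a, wt1b, fn1a, fn1b, postnb, loxa and ccdc80. They were taken by their symbol in the authors' deposited RPM table (reads scaled to library size) and joined by Ensembl identifier to the count table, where all 10 were found among 31953 genes. Bulk RNA sequencing had been run on pooled zebrafish hearts in 8 libraries, 2 for each of 4 groups. The groups were hearts of larvae 3 days old (72 hours after fertilisation; young), adult hearts 3 days and 7 days after injury (3 dpi and 7 dpi), and uninjured adult hearts (control). Each young library pooled about 500 hearts, and each adult library pooled 4 to 6.

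Injury meant chemical ablation of ventricular cardiomyocytes in adults about 5 to 12 months old. The transgene Tg(vmhc:mCherry-Eco.NfsB), carried by the line called vmhc:mCherry-NTR, makes a bacterial nitroreductase under the promoter of the ventricular myosin gene vmhc, and metronidazole is toxic to cells that hold this enzyme. The 3 dpi and 7 dpi fish had received 5 mM metronidazole in 0.1% dimethyl sulfoxide (DMSO) for 48 hours, refreshed every 24 hours. Control fish are labelled as a DMSO group at day 0, while the protocol has the hearts of day 0 collected before metronidazole. Young larvae had no treatment. The labels also name wild-type AB fish and the lines hsWnt8:GFP and hsDKK1:GFP, and do not say which line gave each library. None of the groups here was given the drug without ablation, so drug and ablation cannot be told apart. In pooled tissue, fewer cells of a type and less RNA per cell cannot be told apart either.

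The epicardium is the cell layer that covers the heart. In zebrafish it is known to respond to injury by switching on genes of the embryonic epicardium, to give rise to fibroblasts and mural cells, and to release signals and matrix to the muscle beneath. Its transcription factors Tcf21, Tbx18 and Wt1 mark epicardial cells, and retinoic acid, made by the enzyme that aldh1a2 encodes, is among its signals. Fibronectins, encoded by fn1a and fn1b, are matrix proteins that cells bind through integrins; periostin (postnb) is a matrix protein of fibroblasts; lysyl oxidase (loxa) crosslinks collagen and elastin; and ccdc80 encodes a secreted protein that binds matrix.

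Total counts per library ran from 10868019 to 26628897. The 7 dpi libraries stood apart: they detected 18744 and 17785 genes, against 20660 to 23312 in the other 6 libraries, and mitochondrially encoded transcripts took 24.7% and 28.2% of their counts, against 7.14% to 15.3%. In CPM (counts per 1000000), the median log2 level of genes for ribosomal proteins, which are small, minus that of genes for giant proteins was 6.03 and 5.69 at 7 dpi, against 1.26 to 2.63 in the other 6 libraries. The deposited column names begin with 3 different prefixes, called run prefixes here. One is shared by control and 3 dpi, another is found on 7 dpi alone and the other on young alone. Where 7 dpi or young is compared, group and run prefix therefore cannot be told apart, although the labels describe all libraries as sequenced together. As a check of the tissue label, 10 of 10 cardiomyocyte markers were detected in every library, but their summed level in young hearts was 4335 to 4435 CPM, against 56396 to 66920 CPM in control hearts. Young libraries also held the epithelial gene epcam, at 460 and 476 CPM, against 0.0819 and 0 CPM in control hearts. Nothing in the labels ties the 2 pools of a group to separate clutches or tanks, and p-values therefore measure the spread between these pools, which may be technical.

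Levels are given as CPM scaled by TMM, a method that corrects library totals for differences in composition. Tests are edgeR's quasi-likelihood F test on all 8 libraries with Benjamini-Hochberg adjustment over the 19330 genes that passed a filter on low counts, and rose and fell are used of genes with an adjusted p under 0.05. All 10 genes passed the filter. An exact permutation of 2 against 2 libraries cannot go below p = 0.333, so calls rest on a spread pooled over groups and genes.

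Set against control hearts, 3 dpi hearts had more aldh1a2 and more of 4 of the 5 matrix genes, while the transcription factors of the epicardium did not pass the test. Of the 10 genes, 5 rose and 0 fell: aldh1a2, fn1a, fn1b, loxa and ccdc80. Over all genes tested, 15.6% passed, with 9.05% higher and 6.55% lower. The 10 genes were chosen with earlier results of these data known, so these shares are no test of them. The 5 genes that rose were also the 5 whose libraries did not overlap between the groups, a separation that 56.7% of all genes showed. The median log2 fold change of the 10 was 1.18, where that of all genes was 0.003. The question here is which genes change early after ablation.

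The gene of retinoic acid synthesis rose in both libraries. aldh1a2 (ENSDARG00000053493) measured 516 and 460 CPM at 3 dpi, against 137 and 158 CPM in control hearts. Both injured libraries were above both control libraries, and the log2 fold change was 1.73 (SE 0.23, n = 2 per group, edgeR adjusted p = 0.0015), a 3.31-fold rise. In zebrafish, aldh1a2 is known to be induced by injury in endocardium as well as epicardium. The summed level of 10 endothelial and endocardial markers was 1635 to 1720 CPM at 3 dpi and 1220 to 1505 CPM in control hearts. Of the 10, 1 was higher and 1 lower, with a median log2 fold change of 0.17. In that sum vwf measured 648 and 719 CPM at 3 dpi, against 426 and 248 CPM in control hearts. kdrl measured 204 and 184 CPM at 3 dpi, against 351 and 278 CPM in control hearts. The part of endocardium in the rise of aldh1a2 was not tested.

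Both fibronectin genes rose at 3 dpi; whether their rises differed was not tested. fn1a (ENSDARG00000019815) measured 480.1 and 240.2 CPM at 3 dpi, against 56.7 and 40.4 CPM in control hearts. It rose by 2.89 on the log2 scale (SE 0.36, edgeR adjusted p = 0.00099). fn1b (ENSDARG00000006526) measured 2301 and 1265 CPM at 3 dpi, against 617 and 512 CPM in control hearts. Its log2 fold change was 1.66 (SE 0.33, edgeR adjusted p = 0.00924), and the call was lost without 3 dpi replicate 1 (1.17, adjusted p = 0.0534), without control replicate 2 (1.53, adjusted p = 0.0722) and in a fit of the 3 dpi and control libraries alone (1.64, adjusted p = 0.0521). Within each gene, 3 dpi replicate 1 was the higher of the injured pair.

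The gene of the crosslinking enzyme had the largest fold of the 10 in this comparison, from few control counts. loxa (ENSDARG00000003259) had 253 and 111 counts at 3 dpi, against 7 and 16 counts in control hearts, which is 14.6 and 5.77 CPM against 0.574 and 0.944 CPM. It rose by 3.70 on the log2 scale (SE 0.54, edgeR adjusted p = 0.00214). ccdc80 (ENSDARG00000000002) measured 86.0 and 84.7 CPM at 3 dpi, against 23.1 and 19.4 CPM in control hearts, and rose by 2.01 (SE 0.20, edgeR adjusted p = 0.000294). postnb (ENSDARG00000104267), by contrast, measured 146 and 118 CPM at 3 dpi, within the 101 and 192 CPM of control hearts, with a log2 fold change of -0.16 (SE 0.29, edgeR adjusted p = 0.772).

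The 4 genes of epicardial transcription factors overlapped between the groups. tcf21 (ENSDARG00000036869), a basic helix-loop-helix factor of epicardial cells and fibroblasts, measured 28.3 and 38.2 CPM at 3 dpi, against 32.5 and 56.9 CPM in control hearts. tbx18 (ENSDARG00000036930), a T-box factor, measured 34.3 and 52.7 CPM at 3 dpi, against 38.1 and 39.7 CPM in control hearts. Their log2 fold changes were -0.43 (SE 0.37) and 0.16 (SE 0.23), with edgeR adjusted p = 0.481 and 0.696; tcf21 turned to 0.03 under library totals.

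Of the paralogs of the Wilms tumour factor, wt1a (ENSDARG00000031420) was nearly level and wt1b (ENSDARG00000007990) was spread. wt1a measured 12.3 and 8.83 CPM at 3 dpi, against 10.2 and 10.6 CPM in control hearts, a log2 fold change of 0.02 (SE 0.32, edgeR adjusted p = 0.994). wt1b measured 35.3 and 12.0 CPM at 3 dpi, against 11.6 and 17.3 CPM in control hearts, so that 1 injured library lay between the control libraries and the other above both. Its log2 fold change was 0.71 (SE 0.43, edgeR adjusted p = 0.304), and without 3 dpi replicate 2 it passed at 1.28 (adjusted p = 0.0190), whereas without 3 dpi replicate 1 it stood at -0.27.

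**Figure D1:**
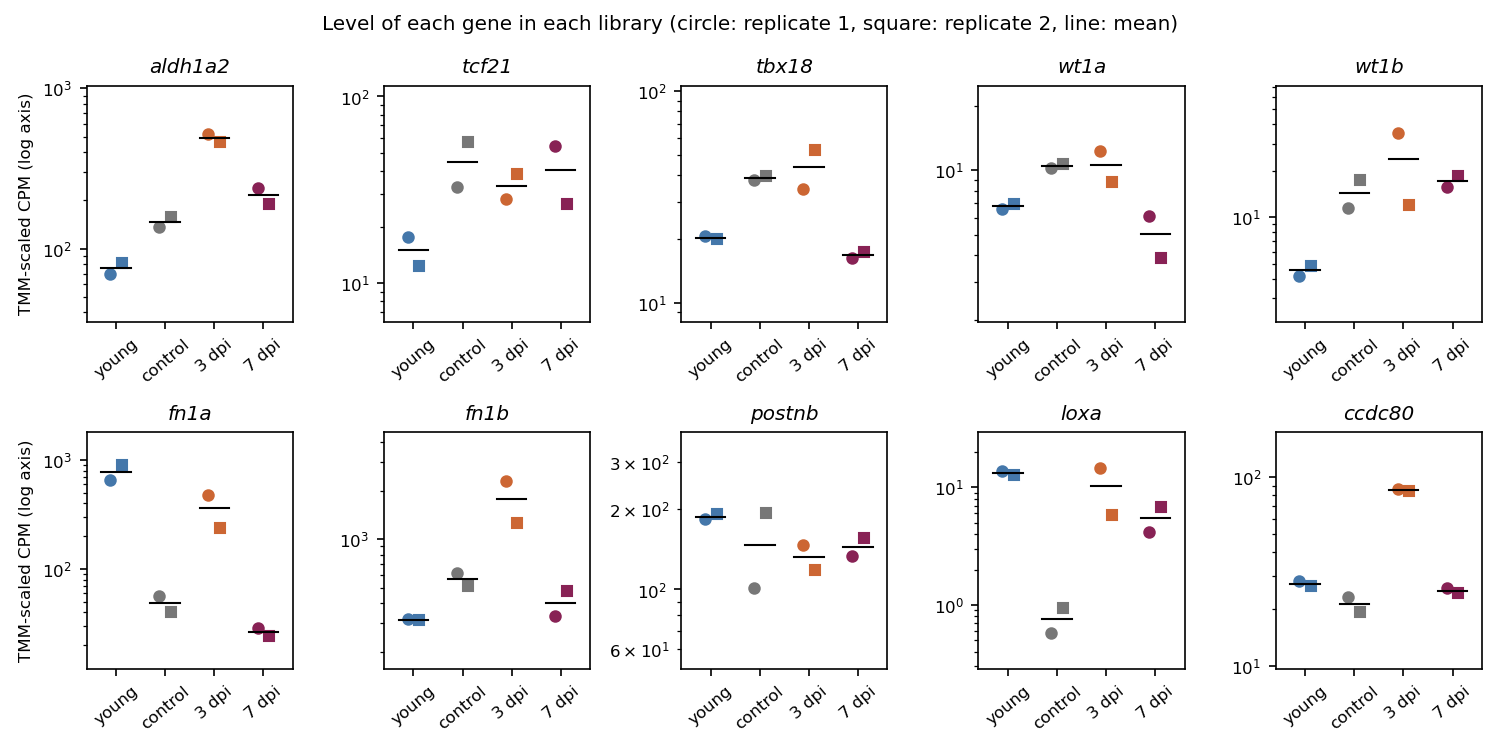
TMM-scaled CPM on a log axis for each of the 10 genes in each library, by group; circles are replicate 1, squares replicate 2 and lines the mean of 2 libraries. At 3 dpi aldh1a2, fn1a, fn1b, loxa and ccdc80 lie above both control libraries, whereas tcf21, tbx18, wt1a, wt1b and postnb overlap with control.

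The 3 dpi libraries differed from each other along with markers of other cells. In 8 of the 10 genes replicate 1 was the higher, and in 5 of 10 the pair differed by more than 1.5-fold, up to 2.94-fold in wt1b, where the median gene with at least 1 CPM differed by 1.25-fold. The summed level of 10 macrophage markers was 1211 CPM in 3 dpi replicate 1 and 553 CPM in replicate 2, against 265 and 320 CPM in control hearts; 9 of the 10 rose at 3 dpi. Cardiomyocyte markers summed to 19113 and 35648 CPM at 3 dpi, against 56396 and 66920 CPM in control hearts, with 1 of 10 higher and 1 lower. Unlike the sum, vmhc, whose promoter drives the transgene, measured 1051 and 545 CPM at 3 dpi, against 202 and 220 CPM in control hearts. Smooth muscle and bulbus markers summed to 931 and 880 CPM at 3 dpi, against 325 and 211 CPM in control hearts, and 7 of 11 rose. No defining marker of these lists was at 0 in either group, and their part in the changes of the 10 genes was not tested.

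At 7 dpi fn1a, fn1b, ccdc80 and aldh1a2 were lower than at 3 dpi. Of the 10 genes 6 fell and 0 rose against 3 dpi: aldh1a2, tbx18, wt1a, fn1a, fn1b and ccdc80. Over all genes 50.9% passed in this comparison, with 22.8% higher and 28.1% lower. The groups did not overlap in the same 6 of the 10 genes and in 73.1% of all genes. Against control, 1 gene of the 10 rose (loxa) and 2 fell (tbx18 and wt1a), where 38.7% of all genes passed, 18.7% higher and 20% lower. These groups did not overlap in 7 of the 10 and in 68.3% of all genes. These comparisons address the change between the 2 times after ablation and the state at the later one.

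The fibronectin genes fell the furthest. fn1a measured 28.6 and 24.4 CPM at 7 dpi, against 480.1 and 240.2 CPM at 3 dpi, and fell by 3.76 on the log2 scale (SE 0.38, edgeR adjusted p = 5.44e-05). Both 7 dpi libraries were also under both control libraries, with a log2 fold change against control of -0.87 (SE 0.35, edgeR adjusted p = 0.0689). fn1b measured 331 and 473 CPM at 7 dpi, and fell by 2.15 on the log2 scale against 3 dpi (SE 0.34, edgeR adjusted p = 0.000515). Against control fn1b stood at -0.49 (SE 0.33, edgeR adjusted p = 0.257), and under library totals at -1.747 (adjusted p = 0.00273). For fn1a against control, the call was gained with DESeq2 (adjusted p = 0.0450) and, in edgeR, with no filter (0.0134), with the 7 dpi and control libraries alone (0.0157), with upper-quartile scaling (0.0390) under library totals (0.00155) and without either 3 dpi library (0.0231 and 0.0238).

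aldh1a2 and ccdc80 fell against 3 dpi and did not pass against control. aldh1a2 measured 239 and 190 CPM at 7 dpi, between its levels at 3 dpi and in control hearts, with a log2 fold change of -1.18 against 3 dpi (SE 0.23, edgeR adjusted p = 0.00178) and of 0.54 against control (SE 0.23, adjusted p = 0.0833). DESeq2 called the difference from control (0.58, adjusted p = 0.0214), and under library totals it was -0.71 (edgeR adjusted p = 0.0150). ccdc80 measured 25.9 and 24.3 CPM at 7 dpi, and its log2 fold change was -1.77 against 3 dpi (SE 0.20, edgeR adjusted p = 8.60e-05) and 0.24 against control (SE 0.20, adjusted p = 0.360).

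loxa kept a level above control. It had 46 and 82 counts at 7 dpi, or 4.20 and 6.81 CPM, and its log2 fold change was 2.82 against control (SE 0.54, edgeR adjusted p = 0.00283) and -0.88 against 3 dpi (SE 0.45, adjusted p = 0.125). Under TMM its 7 dpi libraries overlapped with those of 3 dpi and lay above both control libraries. With library totals loxa passed against 3 dpi as well (-2.585, edgeR adjusted p = 0.0011). postnb measured 133 and 155 CPM at 7 dpi, with log2 fold changes of -0.03 against control (SE 0.29) and 0.13 against 3 dpi (SE 0.29), neither of which passed.

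Among the transcription factors, tbx18 and wt1a were lower at 7 dpi and tcf21 and wt1b did not pass. tbx18 measured 16.2 and 17.4 CPM at 7 dpi, under all 4 control and 3 dpi libraries, with log2 fold changes of -1.21 against control (SE 0.24, edgeR adjusted p = 0.00342) and -1.37 against 3 dpi (SE 0.24, adjusted p = 0.000993). wt1a rested on 67 and 47 counts at 7 dpi, or 6.12 and 3.90 CPM. It changed by -1.06 against control (SE 0.33, edgeR adjusted p = 0.0281), a call lost when either control library was left out (-1.11 and -1.04, adjusted p = 0.0720 and 0.0702) and when 7 dpi replicate 2 was (-0.81, adjusted p = 0.126). It was lost, too, without either young library, which share the estimate of spread (-1.07 in both, edgeR adjusted p = 0.0513 and 0.0518). Against 3 dpi wt1a fell by 1.08 (SE 0.33, edgeR adjusted p = 0.0193), and this call ended without 7 dpi replicate 2 (-0.81, adjusted p = 0.106) and also without 3 dpi replicate 1 (-0.84, adjusted p = 0.113). tcf21 measured 54.5 and 26.5 CPM and wt1b 15.6 and 18.5 CPM at 7 dpi; both overlapped with 3 dpi and with control. Without 3 dpi replicate 2, wt1b (-1.06, edgeR adjusted p = 0.0207) and loxa (-1.42, adjusted p = 0.0163) passed against 3 dpi as well, and loxa did with no filter (-0.93, adjusted p = 0.0490).

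Markers of other cells differed between 7 and 3 dpi as well. Erythrocyte markers summed to 18786 to 46382 CPM at 7 dpi, against 2935 to 3776 CPM at 3 dpi, and 8 of 10 rose, with hbae1.1 and hbae3 at 0 in both groups. Smooth muscle and bulbus markers summed to 1665 to 2026 CPM at 7 dpi, against 880 to 931 CPM at 3 dpi, with 3 of 11 higher and 3 lower. Both sums were higher in each 7 dpi library than in either 3 dpi library. Macrophage markers summed to 212 to 261 CPM at 7 dpi, against 553 to 1211 CPM at 3 dpi, and 10 of 10 fell. Cardiomyocyte markers summed to 121440 to 161840 CPM at 7 dpi, against 19113 to 35648 CPM at 3 dpi, with 7 of 10 higher and 2 lower. Skin and pharyngeal epithelium markers summed to 1420 to 2843 CPM at 7 dpi, against 320 to 433 CPM at 3 dpi, and 8 of 10 rose, while cyt1 and cyt1l were at 0 in both groups. Their part in the falls of the 10 genes was not tested.

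**Figure D2:**
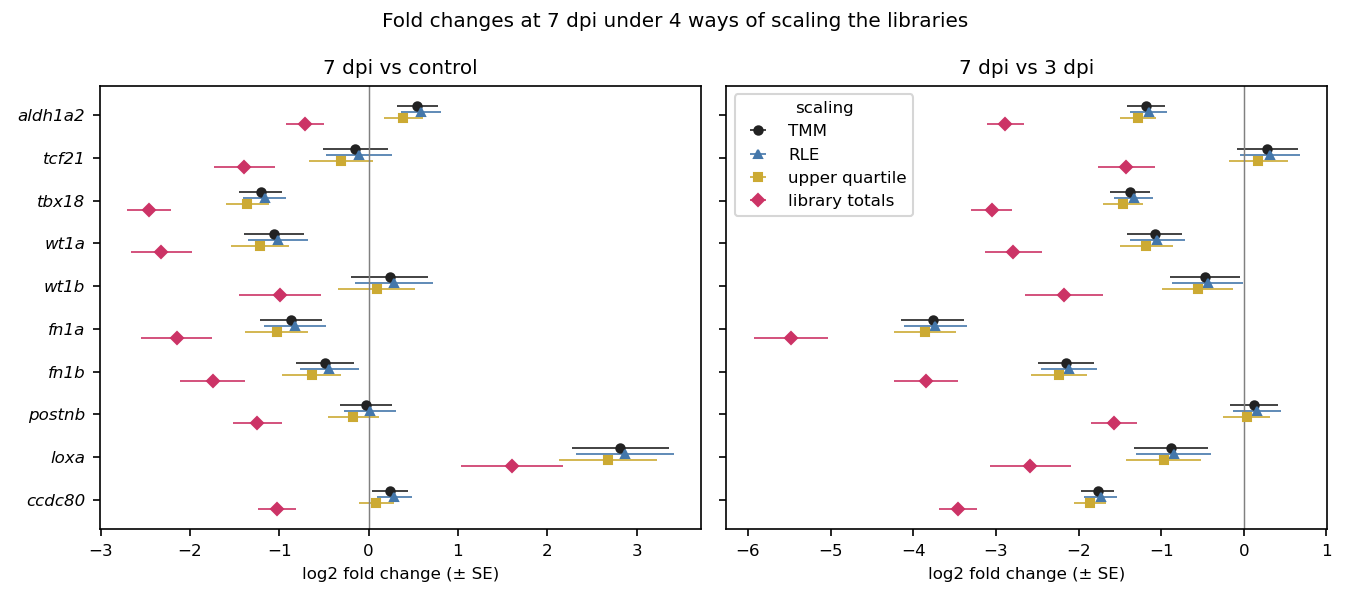
Log2 fold changes (± SE) of the 10 genes at 7 dpi against control (left) and against 3 dpi (right) under 4 ways of scaling the libraries. TMM, RLE and upper-quartile scaling keep the 6 falls against 3 dpi, and library totals shift all 10 genes down, so that aldh1a2, wt1b and ccdc80 against control turn below 0.

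How far the 10 genes fell at 7 dpi depended on the scaling of the libraries. With library totals in place of TMM, the log2 fold changes of all genes shifted by a median of -1.24 against control and of -1.69 against 3 dpi. On that scale 8 of the 10 genes fell and 1 rose against control, where 11041 of the 19330 genes tested fell and 729 rose. Against 3 dpi 10 of 10 fell. Of all called genes 6.19% and 6.2% were higher in these comparisons, against 48.3% and 44.8% under TMM. Against control, loxa stood at 1.60 on that scale, wt1a at -2.32 and tbx18 at -2.46. Under TMM, genes of giant proteins, as a list written with these data known, fell in 20 of 22 at 7 dpi against control. In that comparison 26 of 26 genes of ribosomal proteins rose, where 18.7% of all genes were higher and 20% lower. The lengths of the 10 transcripts are not used here, and the part of transcript length in these falls was not tested.

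Young hearts had more fn1a and loxa and less aldh1a2, tcf21, tbx18, wt1b and fn1b than control adult hearts. Of the 10 genes, 2 thus rose and 5 fell. Under library totals 4 rose (fn1a, loxa, postnb and ccdc80) and 1 fell (tcf21), where 71.8% of all called genes were higher. Under TMM 60.2% of all genes passed, 32.6% higher and 27.6% lower, so a count of 7 in 10 is near the background. The groups did not overlap in 9 of the 10 and in 83.7% of all genes. Against 3 dpi, 1 of the 10 was higher in young hearts and 6 were lower, where 54.1% of all genes passed, 28.7% higher and 25.3% lower. Libraries were apart in 9 of the 10 here and in 83.2% of all genes. Against 7 dpi, 2 were higher and 3 lower, where 68.5% passed, 39.3% higher and 29.2% lower. Under library totals 7 were higher and 0 lower than at 7 dpi, and the calls of aldh1a2, tcf21 and wt1b were lost. On that scale the median log2 fold change of all genes was 2.25 in this comparison, and 88.3% of all called genes were higher. Under TMM the young and 7 dpi libraries were apart in 10 of the 10 and in 87% of all genes. Values for skin, cartilage and muscle genes stand beside these results below.

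fn1a measured 653 and 895 CPM in young hearts, against 56.7 and 40.4 CPM in control hearts, which is 15.9-fold higher (log2 fold change 4.00, SE 0.38, edgeR adjusted p = 1.20e-05). fn1b, in contrast, measured 318 and 313 CPM in young hearts, against 617 and 512 CPM in control hearts, and fell by 0.84 (SE 0.33, edgeR adjusted p = 0.0459). In edgeR the fall of fn1b was lost with RLE size factors (adjusted p = 0.0685), under library totals (-0.25, adjusted p = 0.558), with the replicate number as a block (adjusted p = 0.0609), without the 7 dpi libraries (adjusted p = 0.0504), and without any one of the 4 young and control libraries (adjusted p from 0.0623 to 0.179). Against 3 dpi, young hearts had 2.15-fold more fn1a (SE 0.34 on the log2 scale, edgeR adjusted p = 0.0183) and less fn1b (-2.50, SE 0.34, adjusted p = 0.000173); the call of fn1a was lost without young replicate 2 (0.87, adjusted p = 0.119) and when 3 dpi replicate 2 was left out (0.68, adjusted p = 0.110).

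loxa measured 13.7 and 12.7 CPM in young hearts, or 369 and 395 counts, against 0.574 and 0.944 CPM in control hearts, and rose by 4.08 on the log2 scale (SE 0.54, edgeR adjusted p = 0.000104). The young libraries lay between the 2 libraries of 3 dpi, with a log2 fold change against them of 0.38 (SE 0.43, adjusted p = 0.483). ccdc80 measured 28.2 and 26.5 CPM in young hearts, against 23.1 and 19.4 CPM in control hearts (0.36, SE 0.20, edgeR adjusted p = 0.128), and passed under library totals (0.96, adjusted p = 0.00375). postnb measured 183 and 191 CPM in young hearts, within the 101 and 192 CPM of control hearts (0.35, SE 0.29, edgeR adjusted p = 0.318). It passed under library totals (0.99, edgeR adjusted p = 0.0107) and without control replicate 2 (0.88, adjusted p = 0.0202).

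aldh1a2 measured 69.6 and 81.2 CPM in young hearts, below all 6 adult libraries, against 137 and 158 CPM in control hearts (-0.97, SE 0.23, edgeR adjusted p = 0.00435). tcf21 measured 17.7 and 12.3 CPM in young hearts, against 32.5 and 56.9 CPM in control hearts (-1.58, SE 0.38, edgeR adjusted p = 0.00443), and tbx18 measured 20.6 and 20.0 CPM, against 38.1 and 39.7 CPM (-0.94, SE 0.24, adjusted p = 0.00586). wt1b measured 4.20 and 4.87 CPM in young hearts, against 11.6 and 17.3 CPM in control hearts (-1.67, SE 0.44, edgeR adjusted p = 0.00769), while wt1a, at 6.58 and 6.96 CPM against 10.2 and 10.6 CPM, did not pass (-0.62, SE 0.32, adjusted p = 0.113) except in a fit of these groups alone (-0.65, adjusted p = 0.0470). All 5 of these genes had young libraries under both control libraries. Under library totals in edgeR the calls of aldh1a2 (adjusted p = 0.161), tbx18 (0.228) and wt1b (0.0765) were lost. Leaving out 1 library ended the edgeR calls of aldh1a2 without young replicate 1 (adjusted p = 0.0628), of tbx18 without young replicate 2 (0.0507), and of tcf21 (0.0532) and wt1b (0.0646) without control replicate 2.

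Markers of tissues around the larval heart, of its outflow and of other heart cells differed along with these results. Of 10 skin and pharyngeal epithelium markers 9 were higher in young hearts, with a summed level of 2866 to 3056 CPM, against 249 to 516 CPM in control hearts, where anxa1c, cyt1 and cyt1l were at 0. Of 9 cartilage markers 7 were higher, with 159 to 267 CPM against 22.4 to 27.8 CPM; the cartilage collagen gene col2a1a measured 114 and 41.6 CPM in young hearts, against 0.0819 and 0.0590 CPM in control hearts. Skeletal muscle markers were higher in 8 of 9 tested and lower in 1, with a summed level of 1432 to 1439 CPM in young hearts against 2800 to 3588 CPM in control hearts. The 1 lower marker, ckma, made up nearly all of the control sum, at 2797 and 3583 CPM, against 578 and 605 CPM in young hearts. Among the higher ones mylpfa, of fast muscle, measured 439 and 427 CPM in young hearts, against 0.246 and 2.30 CPM in control hearts. Smooth muscle and bulbus markers were higher in 6 of 11 and lower in 3, with 1002 to 1259 CPM in young hearts against 211 to 325 CPM in control hearts, and none was at 0. Among them elnb, of elastin, measured 440 and 684 CPM in young hearts, against 6.80 and 3.01 CPM in control hearts. Macrophage markers, of which 10 of 10 were lower, summed to 4.48 to 4.50 CPM in young hearts, against 265 to 320 CPM in control hearts. Endothelial and endocardial markers were lower in 7 of 10 and higher in 2. They summed to 629 to 713 CPM in young hearts, against 1220 to 1505 CPM in control hearts. Of 10 cardiomyocyte markers, 9 were lower and 1 was higher. The part of these tissues and cells in the levels of fn1a, loxa and the epicardial genes was not tested.

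**Figure D3:**
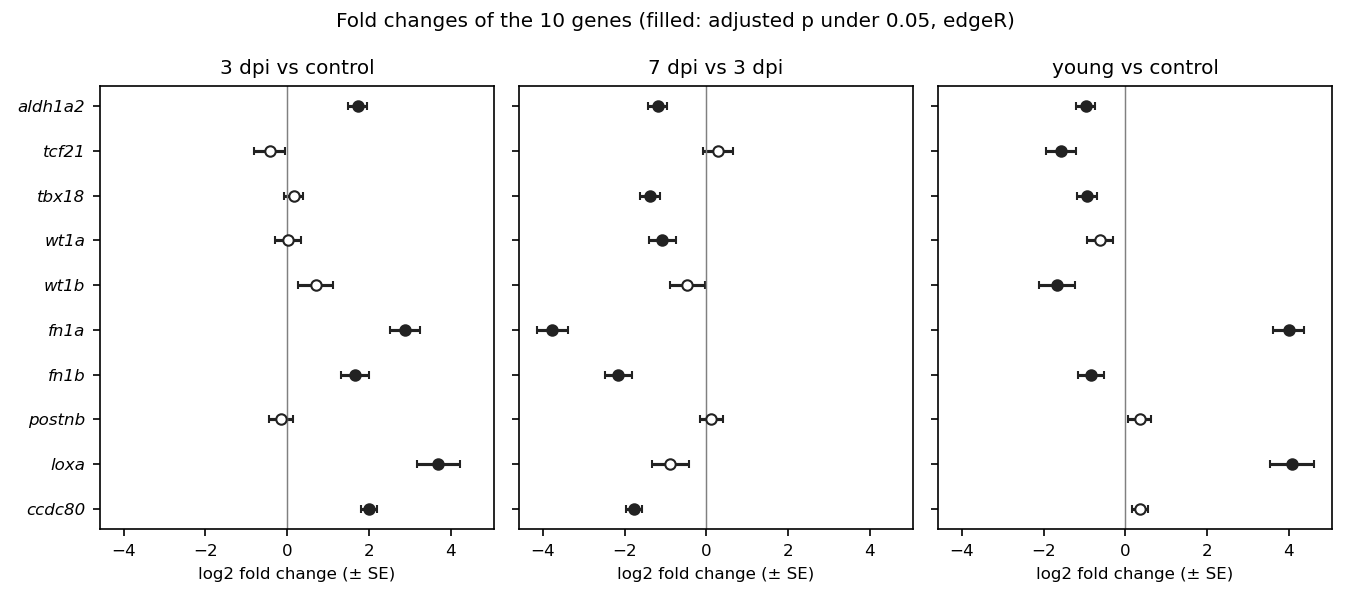
Log2 fold changes (± SE) of the 10 genes in 3 comparisons, with filled points past an adjusted p of 0.05. fn1a stands at 2.89 at 3 dpi against control, -3.76 at 7 dpi against 3 dpi and 4.00 in young against control hearts, whereas fn1b stands at 1.66, -2.15 and -0.84.

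Across the 4 groups, the order of levels was not the same for all of the genes. For aldh1a2 the order from low to high was young, control, 7 dpi and 3 dpi, and the neighbours control and 7 dpi did not differ past the threshold. For fn1a it was 7 dpi, control, 3 dpi and young, and 7 dpi and control did not differ past the threshold. For fn1b the order was young, 7 dpi, control and 3 dpi, with neither young against 7 dpi (edgeR adjusted p = 0.357) nor 7 dpi against control past it. Under library totals all 3 genes were lower at 7 dpi than in control: aldh1a2 (-0.712, edgeR adjusted p = 0.015), fn1a (-2.151, 0.00155) and fn1b (-1.747, 0.00273). On that scale fn1b was also higher in young than at 7 dpi (1.5, edgeR adjusted p = 0.00333), and aldh1a2 did not pass there (0.357, adjusted p = 0.137).

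Among the transcription factor genes, the order for tbx18 was 7 dpi, young, control and 3 dpi. There young and control were the only neighbours that differed past the threshold. For wt1a, with the same 2 groups lowest and control and 3 dpi level with each other, no neighbours did. For tcf21 the order was young, 3 dpi, 7 dpi and control, and for wt1b young, control, 7 dpi and 3 dpi. In both, young differed from its neighbour and the 3 adult groups did not differ from each other past the threshold. These orders are under TMM. Under library totals in edgeR, tcf21 passed at 7 dpi against control (-1.39, adjusted p = 0.00684) and against 3 dpi (-1.42, adjusted p = 0.00441). On that scale wt1b passed at 7 dpi against 3 dpi (-2.18, edgeR adjusted p = 0.00237). There tbx18 and wt1a passed in young against 7 dpi (2.13 and 2.30, edgeR adjusted p = 3.34e-05 and 0.000165). The difference of tcf21 between young and 3 dpi was lost without young replicate 2 (-0.90, edgeR adjusted p = 0.154) and without 3 dpi replicate 2 (-0.92, adjusted p = 0.112). For ccdc80 young, control and 7 dpi lay between 19.4 and 28.2 CPM with no call among them, and 3 dpi stood above all. Under library totals all 3 comparisons among those groups passed for ccdc80: -1.03 at 7 dpi against control, 0.96 in young against control and 1.98 in young against 7 dpi (edgeR adjusted p = 0.00317, 0.00375 and 2.91e-05). For loxa control was lowest, and 7 dpi, 3 dpi and young followed. Of these neighbours, 3 dpi against 7 dpi and young against 3 dpi did not pass under TMM. Under library totals loxa passed at 7 dpi against 3 dpi (-2.585, edgeR adjusted p = 0.0011). Young against 7 dpi, which are not neighbours in this order, passed under TMM (1.26, SE 0.45, edgeR adjusted p = 0.0278). That call was lost without either young library (1.21 and 1.332) or 7 dpi replicate 1 (0.917). For postnb no comparison passed under TMM with all 8 libraries; under library totals it passed at 7 dpi against control (-1.25), 7 dpi against 3 dpi (-1.57), young against control (0.99) and young against 7 dpi (2.23).

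Ratios of counts within a library do not depend on how libraries are scaled. The ratio of fn1b to fn1a counts was 4.79 and 5.27 at 3 dpi and 11.6 and 19.4 at 7 dpi, against 10.9 and 12.7 in control hearts. In young hearts it was 0.488 and 0.350, below every adult library. The ratio of wt1b to wt1a counts was 0.638 and 0.699 in young hearts, against 1.13 and 1.63 in control hearts, and spread from 1.36 to 4.74 in the 4 injured libraries. The sources used here do not give the treatment of reads that match both paralogs, nor the strand setting of the counting. In RefSeq's GRCz12tu annotation the spans of aldh1a2 and loxa overlap no other gene, and those of the other 8 do. Exons and strands were not compared, and the counts used the build GRCz10. Whether reads of those neighbours were counted with these genes was not tested.

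Relative to tcf21, which marks the epicardium and fibroblasts, aldh1a2 gave 18.3 and 12.0 counts per tcf21 count at 3 dpi, against 4.21 and 2.77 in control hearts, and 4.40 and 7.17 at 7 dpi. ccdc80 gave 3.05 and 2.21 counts per tcf21 count at 3 dpi, against 0.710 and 0.341 in control hearts. The 3 dpi libraries were above both control libraries in each of these ratios. Counts of tbx18 per tcf21 count were 1.17 and 0.697 in control replicates 1 and 2, and 1.21 and 1.38 in the 3 dpi pair. The 7 dpi pair gave 0.297 and 0.658, under both control values, although 0.658 was close to the 0.697 of control replicate 2. The CPM of tcf21, the denominator, differed 2.06-fold between the 7 dpi libraries. Whether tbx18 fell relative to tcf21 was not tested.

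**Figure D4:**
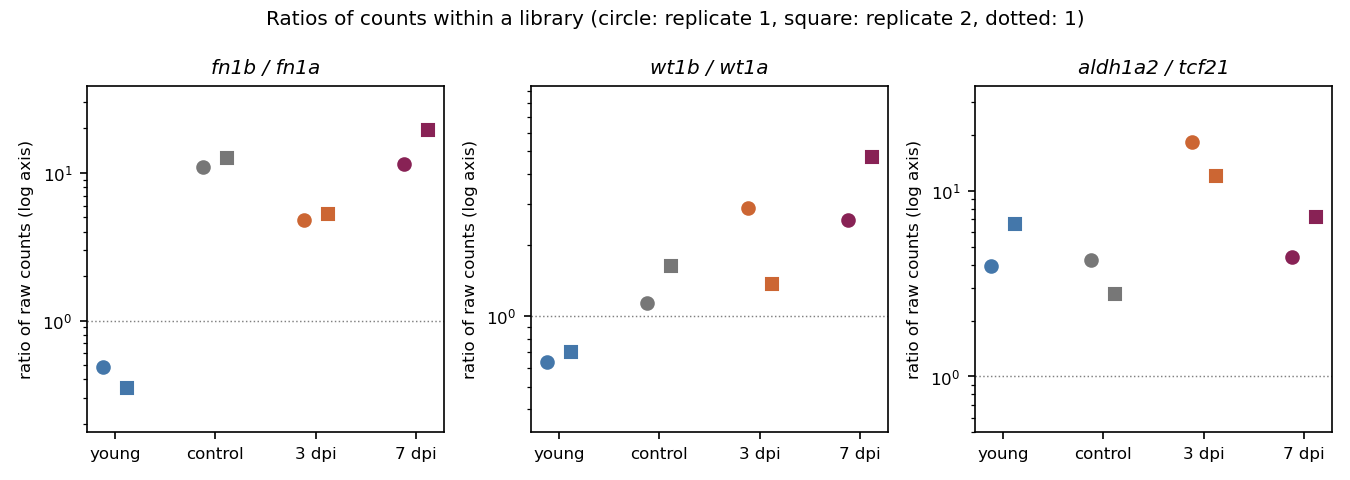
Ratios of raw counts within each library, on log axes, for fn1b over fn1a, wt1b over wt1a and aldh1a2 over tcf21; circles are replicate 1, squares replicate 2, and the dotted line marks a ratio of 1. The fn1b to fn1a ratio is below 1 in both young libraries and at 4.79 or more in all adult libraries.

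Other genes of these pathways are described from 4 lists. The lists were chosen with earlier results of these data known, so shares of all genes given beside their counts are no test. At 3 dpi against control, 9.05% of all genes rose and 6.55% fell. In the retinoic acid list 4 of 24 genes rose and 2 fell at 3 dpi, with a median log2 fold change of 0.18, where the median of all genes was 0.003; without 3 dpi replicate 1 the counts were 1 and 0, without control replicate 2 they were 0 and 0, with the 3 dpi and control libraries alone 3 and 0, without 3 dpi replicate 2 they were 6 and 4, and with no filter 7 and 4. cyp26b1, which encodes an enzyme that breaks down retinoic acid, measured 91.4 and 142 CPM at 3 dpi, against 39.9 and 34.1 CPM in control hearts, and rose by 1.66 (SE 0.30, edgeR adjusted p = 0.00542). The retinoid receptor gene rxrga rose by 1.76 (SE 0.35). At 7 dpi cyp26b1 fell to 9.60 and 6.14 CPM, a log2 fold change of -3.89 against 3 dpi (SE 0.33, edgeR adjusted p = 3.43e-05), while rbp4, of the carrier protein of retinol, measured 1622 and 1529 CPM at 7 dpi, against 73.0 and 204 CPM at 3 dpi (3.50, SE 0.53, adjusted p = 0.000406). In the whole list 5 genes rose and 7 fell at 7 dpi against 3 dpi, where 22.8% of all genes were higher and 28.1% lower. Under library totals 3 rose and 15 fell, where 6.2% of all called genes were higher. The counts also moved without 7 dpi replicate 1.

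The list of other epicardial genes held few calls at 3 dpi. Of 18 tested, 0 rose and 1 fell, angptl7, with a median log2 fold change of -0.17; library totals, the 3 dpi and control libraries alone, and leaving out control replicate 2, 3 dpi replicate 1 or the young libraries called 0, and DESeq2 and leaving out control replicate 1 or 3 dpi replicate 2 called 4. podxl, which encodes the surface protein podocalyxin, measured 307 and 452 CPM at 3 dpi, against 613 and 610 CPM in control hearts (-0.69, SE 0.25, edgeR adjusted p = 0.0949). At 7 dpi against 3 dpi, 2 rose and 7 fell, where 22.8% of all genes were higher and 28.1% lower. Library totals gave 0 and 17. Among those that fell was bnc2, of the zinc finger protein basonuclin, with a log2 fold change of -3.25 (SE 0.38, edgeR adjusted p = 0.000104).

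Of 38 other genes of the provisional matrix and of crosslinking, 12 rose at 3 dpi, 0 fell and 26 did not pass, with a median log2 fold change of 0.95, where 9.05% of all genes rose; 7 rose without 3 dpi replicate 1, 6 without control replicate 2, 20 with no filter and 22 under library totals. vcanb, of the proteoglycan versican, measured 96.2 and 97.3 CPM at 3 dpi, against 10.9 and 8.97 CPM in control hearts, and rose by 3.29 (SE 0.24, edgeR adjusted p = 7.60e-05). itga5, of the integrin subunit that binds fibronectin, measured 370 and 430 CPM at 3 dpi, against 162 and 154 CPM in control hearts, and rose by 1.34 (SE 0.22, edgeR adjusted p = 0.00339). The rises of has1, of hyaluronan synthesis, and of tnc, which encodes the matrix protein tenascin, were led by 1 library: has1 measured 75.6 and 4.57 CPM at 3 dpi, against 0.574 and 0.413 CPM in control hearts, and tnc 32.1 and 6.49 CPM, against 4.10 and 2.07 CPM. At 7 dpi against 3 dpi, 25 of the 38 fell and 2 rose, where 28.1% of all genes were lower and 22.8% higher. The median was -1.67 where that of all genes was -0.21, and library totals gave 33 falls and 0 rises.

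Fibroblast genes other than the 10 were mostly not called at 3 dpi: 4 of 32 rose and 0 fell, with a median log2 fold change of 0.34, where that of all genes was 0.003. The count of risers was 0 without control replicate 2, 1 without 3 dpi replicate 1, 2 with the 3 dpi and control libraries alone, 2 without the young libraries and 11 under library totals, none with a faller. With DESeq2 5 rose and 3 fell, with no filter 7 and 2, and without 3 dpi replicate 2 they were 7 and 3. col12a1a, a collagen gene, measured 304 and 30.4 CPM at 3 dpi, against 9.51 and 8.97 CPM in control hearts, and rose by 4.18 (SE 0.79, edgeR adjusted p = 0.00720), a rise led by replicate 1. col1a1a, of type I collagen, measured 578 and 389 CPM at 3 dpi against 280 and 349 CPM in control hearts (0.62, SE 0.28, edgeR adjusted p = 0.164). At 7 dpi against 3 dpi 7 fibroblast genes rose and 11 fell, where 22.8% of all genes were higher and 28.1% lower. Library totals gave 0 and 25.

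In young against control hearts, 25 of the 38 genes of provisional matrix and crosslinking rose and 7 fell, where 32.6% of all genes rose and 27.6% fell. has2, of hyaluronan synthesis, measured 64.3 and 72.1 CPM in young hearts, against 2.87 and 2.30 CPM in control hearts (4.73, SE 0.37, edgeR adjusted p = 3.42e-06), and itga5 measured 64.0 and 78.5 CPM, against 162 and 154 CPM (-1.15, SE 0.22, adjusted p = 0.00105). col1a1a measured 2081 and 2364 CPM in young hearts, against 280 and 349 CPM in control hearts (2.82, SE 0.30, edgeR adjusted p = 2.43e-05), in a fibroblast list with 12 genes higher and 9 lower. Of the epicardial list 6 rose and 7 fell, with podxl among those that fell, at 47.1 and 41.5 CPM against 613 and 610 CPM (-3.79, SE 0.28, edgeR adjusted p = 2.98e-06), and of the retinoic acid list 12 rose and 7 fell.

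**Figure D5:**
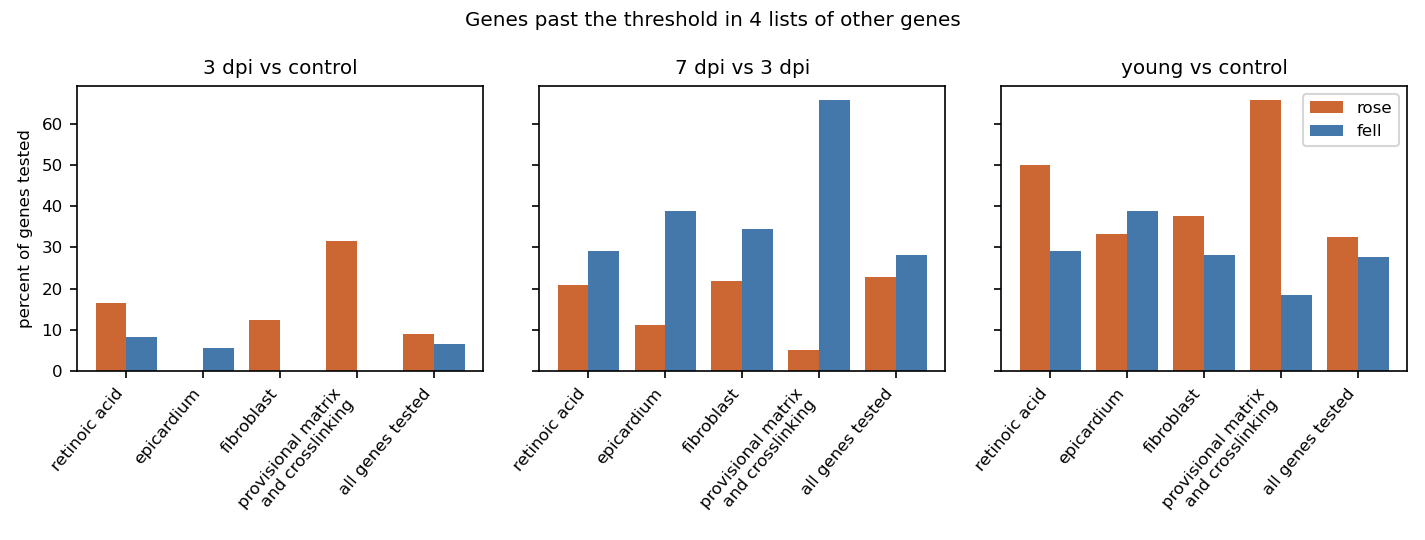
Percent of tested genes that rose (orange) or fell (blue) past an adjusted p of 0.05 in 4 lists of other genes and over all genes tested, in 3 comparisons. Provisional matrix and crosslinking genes rose in 12 of 38 at 3 dpi, fell in 25 of 38 at 7 dpi against 3 dpi, and rose in 25 of 38 in young hearts. The lists were chosen with earlier results of these data known.

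The genes whose profile over the 8 libraries was most like each of the 10 were found by the root mean square difference of centred log2 CPM, among 13438 genes with a mean of at least 1 CPM. For aldh1a2 they were msna (0.23), cyr61 (0.23) and scpep1 (0.24), and for ccdc80 wdr1 (0.19), rcan1a (0.21) and znf521 (0.22). For fn1a the nearest was ptgs2a, at 0.33, and for fn1b it was mapk8ip3, at 0.23. The neighbours of loxa were farther: pkp1b stood at 0.53 and acana, a cartilage proteoglycan gene, at 0.54. For wt1b the nearest were admb (0.23), tgm2b (0.23) and lrrc15 (0.24). The nearest pair among the 10 was tbx18 and wt1a, at 0.37, and fn1b and ccdc80 followed at 0.51. The libraries that these differences rest on share groups, run prefixes and scaling, so the differences describe likeness over these 8 libraries only.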

How the data were processed

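The authors deposited a table of raw read counts per gene and an RPM table (reads scaled to library size), both for whole pooled hearts. TopHat2 2.0.13, HTSeq and the build GRCz10 are named, per the submitters' processing notes, and a negative binomial test is named, per the labels' protocols. Deposited RPM values equalled counts over library totals within a relative 1e-04, with control replicates 1 and 2 numbered the other way round, and replicates are numbered here as in the count table. RPM was used for symbols only.

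The counts were fitted with edgeR 4.0.16 (R 4.3.3): TMM, filterByExpr, 1 coefficient per group, 8 libraries, 4 residual degrees of freedom. The 6 comparisons were adjusted over 19330 genes. SE is the log2 fold change over the square root of F. DESeq2 1.42.0, other scalings and filters, a replicate block and each library left out were alternatives. The code was tested on simulated data. Total counts were 10868019 to 26628897.

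The 10 genes and the lists were chosen with earlier results of these data known. Named besides the 10 were, per list and comparison, up to 3 called genes with the largest fold changes and the gene with the highest mean CPM, and for each of the 10 the 3 genes of most similar profile; tissue markers are named from their lists. Sequences and coordinates are not used here.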

Additional observations from a re-analysis of the deposited data

Results flagged for a closer look

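The changes at 7 dpi and at 3 dpi, each against the same control hearts, differed past the threshold in 6 of the 10 genes. Because the controls are shared, this difference is the comparison of 7 dpi with 3 dpi already given, and is no separate result. On the log2 scale, the change at 7 dpi minus that at 3 dpi was -1.18 for aldh1a2, -1.37 for tbx18 and -1.08 for wt1a. It was -3.76 for fn1a, -2.15 for fn1b and -1.77 for ccdc80. All 6 were tested with edgeR. Over all genes 50.9% passed this test. In all 6 genes the 7 dpi libraries lay below the 3 dpi libraries. The 7 dpi libraries also differ from the others in genes detected and in mitochondrial share. They differ as well in the level of ribosomal protein genes relative to giant protein genes. The part of these was not tested, and group and run prefix cannot be told apart in this comparison.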

How the results depend on the processing

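Of the log2 fold changes of the 10 genes under other settings, 34 changed sign, some of them with a change of call as well. Of those that kept direction, 690 kept their call or lack of one, 33 lost a call and 23 gained one. Fits that left out 1 library of a group outside the comparison are not in these counts. Where no cause is named, the cause was not tested. Library totals moved the number of the 10 genes called to 9 at 7 dpi against control (3 under TMM) and to 10 at 7 dpi against 3 dpi (6), and the genes called at 7 dpi against control to 11770 (7486). They changed the sign at 3 dpi against control of tcf21 (0.032) and postnb (0.323), at 7 dpi against control of aldh1a2 (-0.712), wt1b (-0.991) and ccdc80 (-1.025), at 7 dpi against 3 dpi of tcf21 (-1.423) and postnb (-1.568), and in young against 7 dpi of aldh1a2 (0.357), tcf21 (0.445) and fn1b (1.5). The share of called genes that were higher moved to 86.8% at 3 dpi against control (58% under TMM), 71.8% in young against control (54.1%) and 88.3% in young against 7 dpi (57.4%). DESeq2 called 5 of the 10 at 7 dpi against control. Fitting 3 dpi and control alone, with fewer libraries, called 1823 genes (3015). wt1a at 3 dpi against control, at 0.02, took -0.04 with upper-quartile scaling, -0.008 with the 2 groups alone, -0.002 with a replicate block, and, in settings chosen after seeing the data, -0.002 without the 7 dpi and -0.032 without the young libraries. postnb at 7 dpi against control took 0.018 with RLE size factors and 0.013 with DESeq2.

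Leaving out 1 library of the groups compared at a time, which takes a lone library to vary like the other groups, gave 4 to 6 of the 10 called at 3 dpi against control, 2 to 3 at 7 dpi against control, 5 to 8 at 7 dpi against 3 dpi, 5 to 6 in young against control, 5 to 7 in young against 3 dpi and 3 to 5 in young against 7 dpi. Genes called ranged from 985 (without 3 dpi replicate 1) to 3287 at 3 dpi against control, from 4093 (without control replicate 1) to 7019 at 7 dpi against control, and from 6792 to 8604 in young against 3 dpi. Ranges that crossed 0 were, at 3 dpi against control, -0.824 to 0.036 for tcf21, -0.182 to 0.445 for tbx18, -0.234 to 0.241 for wt1a, -0.266 to 1.284 for wt1b and -0.596 to 0.385 for postnb. At 7 dpi against control they were -0.783 to 0.306 for tcf21, -0.048 to 0.555 for wt1b and -0.444 to 0.5 for postnb. At 7 dpi against 3 dpi they were -0.328 to 0.695 for tcf21, -1.058 to 0.493 for wt1b and -0.029 to 0.273 for postnb, and in young against control -0.121 to 0.883 for postnb. In young against 3 dpi the range was -0.152 to 1.18 for loxa.

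Same-numbered replicates did not deviate together (correlations from -0.14 to 0.068), so the numbers are not taken as pairs. With the replicate block 5, 3 and 6 of the 10 genes were called at 3 dpi against control, 7 dpi against control and 7 dpi against 3 dpi, and 6, 7 and 5 in young against control, 3 dpi and 7 dpi. Depth limits loxa most, with 7 and 16 control counts.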

Other observations

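Replicates of the 10 genes were closest in young hearts, where none of the 10 differed by more than 1.5-fold and the largest ratio was 1.43 (tcf21). In 7 dpi hearts 3 of the 10 differed by more, up to 2.06-fold in tcf21, and in control hearts 4 of the 10, up to 1.90-fold in postnb. In the other lists, has1 differed 16.5-fold, col12a1b 7.13-fold and tnc 4.94-fold between the 3 dpi libraries, and col12a1a, at 304 and 30.4 CPM, differed by more than col12a1b; replicate 1 was the higher in each.

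The nearest profiles of the transcription factor genes differed little over the 8 libraries: zmat2 stood at 0.16 from tcf21, cln8 at 0.098 from tbx18 and scara3 at 0.15 from wt1a. For postnb it was ccdc50, at 0.12.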
